A study of Homo sapiens with 24 samples.

Results

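Genes of amino acid stress were followed in SCC-61, a human head and neck cancer line, and in HaCaT, an immortalized human skin keratinocyte line that was not derived from a tumor. The 37 listed genes were 19 cytosolic aminoacyl-tRNA synthetases, 7 enzymes of amino acid and one-carbon metabolism, 6 transcription factors and 5 stress effectors. Genes were first named from earlier results of these data, and their probes were then selected on the deposited detection p-values. A probe was kept when some group had a detection p under 0.05 on each of its 3 arrays, which left 34 genes with 42 of their 48 probes, among 12221 genes and 21580 probes that met the same condition. CARS1 had no probe with its name. ALDH1L2, a mitochondrial folate enzyme, was detected on 1 of 24 arrays (log2 intensity 3.73 to 4.52), and CHAC1, which degrades glutathione, was detected on 4 of 24 (3.18 to 4.59), and neither was kept. CHAC1 was detected on 1 untreated and 1 AMP-18 array of SCC-61 at 24 h and on 2 AMP-18 arrays of HaCaT at 2 h.

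Cells of both lines were kept in medium with 1% serum and were left untreated or received recombinant AMP-18, a protein of the stomach mucosa, at 2 µg/ml. RNA was taken at 2 h and 24 h, with 3 arrays for each of the 8 combinations of line, treatment and time, 24 in all. SCC-61 was grown in DMEM/F12 with hydrocortisone and HaCaT in DMEM, so line and culture medium cannot be told apart. Each line is a single established line, no source says whether the 3 arrays of a group stand for separate cultures, and the p-values measure only their spread. No slide or scan is given, so hours in culture and any separate handling of the 2 h and 24 h arrays cannot be told apart. Values are log2 intensities of Illumina bead array probes, with nearly equal array medians and 18767 to 22161 of 47323 probes detected per array. A log2 change is a difference between 2 group means of 3 arrays each, given with its standard error from limma and a p-value adjusted by Benjamini-Hochberg over all 21580 probes. A gene is said to rise or fall where that p was under 0.05. Where a gene had several kept probes, the brightest on average is given.

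When an amino acid runs short, uncharged tRNA activates the kinase GCN2, which phosphorylates the initiation factor eIF2α. General translation slows, while translation of the transcription factor ATF4 increases. ATF4, paired with C/EBP family proteins, switches on asparagine synthetase, serine and one-carbon enzymes, amino acid transporters and most cytosolic tRNA synthetases. Endoplasmic reticulum stress reaches the same factor through the kinase PERK.

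Promoters are shown because many of these genes are textbook ATF4 targets. Of the 37 genes, 31 had a promoter window in the RefSeq table of GRCh38.p14, 250 bases before to 50 after each start site. The core of the amino acid response element, TGATGNAA, was searched on both strands. It was found at 11 of the 31 genes (35.5%) and in 11 of their 46 windows (23.9%), against 1270 of 35093 windows of all genes (3.62%) and 1217 of 27305 genes (4.46%). The 11 genes were AARS1, ATF3, ASNS, CARS1, CEBPG, CHAC1, GARS1, IARS1, MARS1, NARS1 and TARS1. The windows of the 6 with the largest called time change in either untreated line are printed 5′ to 3′ on the gene's strand with the match in capitals, and a match on the opposite strand reads as the reverse complement. They are ASNS (chr7:97872359-97872658, minus strand), MARS1 (chr12:57487818-57488117, plus strand), IARS1 (chr9:92293648-92293947, minus strand), AARS1 (chr16:70289457-70289756, minus strand), GARS1 (chr7:30594628-30594927, plus strand) and ATF3 (chr1:212565157-212565456, plus strand).
ASNS: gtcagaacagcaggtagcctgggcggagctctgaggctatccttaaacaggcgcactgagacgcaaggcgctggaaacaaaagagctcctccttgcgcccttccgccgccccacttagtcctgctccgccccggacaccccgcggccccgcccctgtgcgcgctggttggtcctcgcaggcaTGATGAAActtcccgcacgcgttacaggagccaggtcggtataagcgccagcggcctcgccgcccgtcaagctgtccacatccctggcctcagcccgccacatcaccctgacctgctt
MARS1: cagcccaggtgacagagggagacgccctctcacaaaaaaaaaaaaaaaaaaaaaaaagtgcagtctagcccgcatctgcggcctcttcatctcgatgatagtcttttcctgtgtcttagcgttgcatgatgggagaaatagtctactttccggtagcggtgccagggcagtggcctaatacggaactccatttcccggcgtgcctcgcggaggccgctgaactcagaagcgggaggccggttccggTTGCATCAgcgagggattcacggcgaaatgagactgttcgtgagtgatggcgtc
IARS1: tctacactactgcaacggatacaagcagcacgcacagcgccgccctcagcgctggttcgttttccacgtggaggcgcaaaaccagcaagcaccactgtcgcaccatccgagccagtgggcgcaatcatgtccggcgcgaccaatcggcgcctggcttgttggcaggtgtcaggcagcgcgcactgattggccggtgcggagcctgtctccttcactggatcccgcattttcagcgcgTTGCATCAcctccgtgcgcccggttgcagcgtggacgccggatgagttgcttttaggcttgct
AARS1: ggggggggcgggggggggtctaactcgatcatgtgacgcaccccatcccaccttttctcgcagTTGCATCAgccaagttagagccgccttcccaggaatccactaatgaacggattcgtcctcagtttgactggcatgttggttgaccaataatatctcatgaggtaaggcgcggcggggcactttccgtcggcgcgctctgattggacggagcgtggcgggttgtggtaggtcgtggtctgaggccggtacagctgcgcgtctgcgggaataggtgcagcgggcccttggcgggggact
GARS1: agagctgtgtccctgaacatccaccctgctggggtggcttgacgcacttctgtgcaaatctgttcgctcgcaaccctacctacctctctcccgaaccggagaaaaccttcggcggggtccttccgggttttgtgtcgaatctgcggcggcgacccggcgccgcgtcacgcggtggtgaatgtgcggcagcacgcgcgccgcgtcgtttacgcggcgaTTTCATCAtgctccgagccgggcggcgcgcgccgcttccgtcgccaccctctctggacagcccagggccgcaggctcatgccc
ATF3: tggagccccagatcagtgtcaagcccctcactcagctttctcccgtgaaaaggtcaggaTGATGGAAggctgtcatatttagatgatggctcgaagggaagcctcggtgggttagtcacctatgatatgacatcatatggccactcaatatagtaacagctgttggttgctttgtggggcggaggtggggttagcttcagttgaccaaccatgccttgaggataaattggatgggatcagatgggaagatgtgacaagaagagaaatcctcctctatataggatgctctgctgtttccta
In these windows the match lay at -68 to -61 from the start site in ASNS, at -4 to 4 in MARS1, at -13 to -6 in IARS1, at -187 to -180 in AARS1, at -33 to -26 in GARS1 and at -191 to -184 in ATF3. The match is a description of letters only, and binding was not measured. Many of the genes are known ATF4 targets, so their higher share with this core cannot be told apart from that choice. Its part in the time changes was not tested.

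The labelled cell types were checked first. Of 9 keratinocyte markers, 6 had a named probe, and KRT5, KRT14, DSG3, DSC3, CDH1 and EPCAM were detected on all 12 arrays of each line. KRT14, a basal keratin, lay at 6.10 to 6.79 in SCC-61 and at 11.92 to 12.24 in HaCaT. In untreated HaCaT, 5 of these 6 rose from 2 h to 24 h and EPCAM fell, with a median log2 change of 0.57, and in SCC-61 3 rose and EPCAM fell, with a median of 0.24. Of the leukocyte genes, PTPRC and CD3E were detected on 0 arrays, whereas CD14 and CD68, which other cell types can also express, were detected on all 12 arrays of each line. LYZ was detected on 5 SCC-61 and 6 HaCaT arrays. CD14 rose in both untreated lines, by 1.05 in SCC-61 and 0.50 in HaCaT, and CD68 rose in SCC-61 by 0.57. The fibroblast receptor PDGFRB was detected on 0 arrays. Markers of mesenchymal cells moved with time in both lines. Of the 8 listed, 1 was detected on all 3 untreated HaCaT arrays at 2 h and 4 at 24 h, and their summed level on the log2 scale was 7.62 to 7.72 at 2 h and 8.73 to 8.86 at 24 h. The proteoglycan genes LUM and DCN were detected on 0 untreated HaCaT arrays at 2 h. At 24 h they were detected, at 7.27 to 7.50 and 6.55 to 6.76. COL3A1, FN1 and PDGFRB were still detected on 0 arrays then. VIM, detected on all untreated HaCaT arrays at both times, went down, from 6.51 to 6.66 at 2 h to 6.33 to 6.45 at 24 h. In untreated SCC-61, 5 of the 8 were detected at each time, with summed levels of 9.89 to 9.97 at 2 h and 9.72 to 10.03 at 24 h. VIM, the brightest of them, had a log2 change of -0.49, while COL1A1 rose by 0.46, COL3A1 by 0.93 and LUM by 1.51, the last from 4.80 to 5.42 up to 6.44 to 7.05. The part of these markers in the results below was not tested, and in RNA from whole cultures, fewer cells of a kind and less RNA per cell cannot be told apart.

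Between 2 h and 24 h without AMP-18, more of the amino acid genes rose than fell in SCC-61, and more fell than rose in HaCaT. In SCC-61, 24 of the 34 genes rose and 6 fell, with a median log2 change of 0.32, where 24.4% of all tested probes rose, 27.5% fell and their median change was -0.03. In HaCaT, 8 rose and 22 fell with a median of -0.59, against 28.6% of probes higher and 29.3% lower, with a median of 0.00. The difference of the 2 changes was tested for each gene. It was above 0 in 27 genes and below 0 in 3, with a median of 0.81, where 18.9% and 20.8% of probes were called. VLDLR and SESN2 passed the detection condition without being detected on every array. Over the 32 genes detected on all 24 arrays, 22 rose and 6 fell in SCC-61, 7 rose and 22 fell in HaCaT, and the difference was called above 0 in 27 and below 0 in 3. The genes were chosen with this time pattern already known. Their counts and p-values therefore describe the chosen genes and are not an independent test of the pattern. The p-values come from the fit to all probes, and adjustment over those probes does not correct for the choice.

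**Figure D1:**
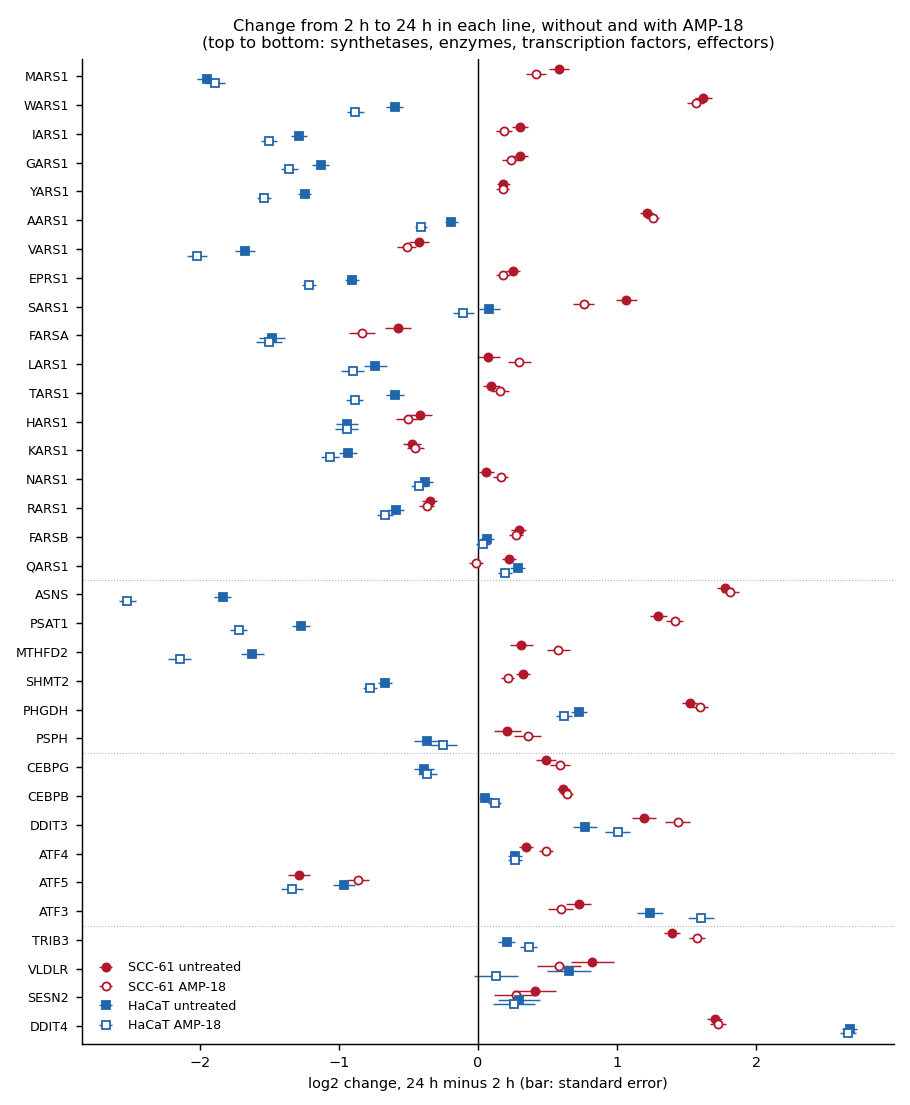
Log2 change from 2 h to 24 h (x axis) of each of the 34 genes (y axis, grouped by role) in untreated (filled) and AMP-18 (open) SCC-61 and HaCaT, with the standard error of each change as a bar and 3 arrays per group. ASNS, PSAT1, MARS1, WARS1 and most synthetases lie to the right of 0 in SCC-61 or near it and to the left in HaCaT, while DDIT4, ATF3, DDIT3 and PHGDH lie to the right in both.

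The directions sorted the 34 genes into 5 groups, and the share of all probes in each such group was not counted. The largest held 12 genes that rose in SCC-61 and fell in HaCaT, namely AARS1, EPRS1, GARS1, IARS1, MARS1, WARS1, YARS1, ASNS, PSAT1, SHMT2, MTHFD2 and CEBPG, and the difference was called in all 12. QARS1, PHGDH, DDIT3, ATF3, ATF4, DDIT4, TRIB3 and VLDLR rose in both lines. FARSA, HARS1, KARS1, RARS1, VARS1 and ATF5 fell in both. FARSB, SARS1, CEBPB and SESN2 rose in SCC-61 and did not pass the test in HaCaT, and LARS1, NARS1, TARS1 and PSPH fell in HaCaT and did not pass in SCC-61. Of these last 8, the difference between the lines was called in 7, all but SESN2.

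The enzymes of amino acid supply showed the widest split. ASNS, which makes asparagine, read 8.94, 8.82 and 8.85 on the untreated SCC-61 arrays at 2 h and 10.52, 10.73 and 10.68 at 24 h. In untreated HaCaT it read 10.11, 10.01 and 9.94 at 2 h and 8.11, 8.19 and 8.26 at 24 h. No array of one time overlapped the other in either line, and the line that was higher at 2 h was lower at 24 h. ASNS rose 3.42-fold in SCC-61 (log2 change 1.77, SE 0.06, limma adjusted p = 5.23e-20) and fell by 1.83 on the log2 scale in HaCaT (SE 0.06, adjusted p = 4e-21). The difference of 3.61 (SE 0.09, adjusted p = 3.98e-23) was the widest of the 34 genes. A second ASNS probe gave 1.62 and -1.20.

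PSAT1 and PHGDH encode enzymes of serine synthesis, and they parted in HaCaT. PSAT1 read 9.71, 9.79 and 9.82 in SCC-61 at 2 h and 10.99, 11.10 and 11.11 at 24 h. In HaCaT it read 10.57, 10.59 and 10.63 and then 9.39, 9.38 and 9.21. The log2 changes of 1.29 and -1.27 (SE 0.06 each) differed by 2.57 (limma adjusted p = 9.85e-20). PHGDH, the first enzyme of the pathway, read 10.58, 10.58 and 10.52 in SCC-61 at 2 h and 11.97, 12.23 and 12.05 at 24 h. In HaCaT it read 11.43, 11.41 and 11.57 and then 12.16, 12.22 and 12.21, so that it rose in both lines, by 1.52 (SE 0.06) and 0.72 (SE 0.06). PHGDH was the sole gene of the 6 measured enzymes to rise in HaCaT, where the other 5 fell. Over all probes, 28.6% rose and 29.3% fell there. PSPH, the last enzyme of the pathway, changed by -0.36 in HaCaT (SE 0.10, adjusted p = 0.00181) and by 0.21 in SCC-61 (adjusted p = 0.0724), and a second PSPH probe passed in neither line.

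The mitochondrial one-carbon enzymes also split. MTHFD2, a folate dehydrogenase, read 8.30, 8.28 and 8.23 in SCC-61 at 2 h and 8.73, 8.47 and 8.53 at 24 h, a log2 change of 0.31 (SE 0.08, limma adjusted p = 0.00232). In HaCaT it read 8.02, 7.97 and 8.16 and then 6.42, 6.48 and 6.38, a change of -1.62 (SE 0.08, adjusted p = 1.22e-16). The groups of each line did not overlap. SHMT2, which converts serine to glycine, rose by 0.32 (SE 0.05) in SCC-61 and fell by 0.67 (SE 0.05) in HaCaT.

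Of 18 cytosolic synthetases measured, 10 rose and 5 fell in SCC-61, while 1 rose and 15 fell in HaCaT. Over all probes, 24.4% rose and 27.5% fell in SCC-61, and 28.6% rose and 29.3% fell in HaCaT. The share of synthetases that fell in SCC-61 was thus near that of all probes. The median log2 changes were 0.20 and -0.82. The difference was above 0 in 17, where it was above 0 in 18.9% of all probes and below 0 in 20.8%. WARS1, the tryptophan enzyme and also a gene induced by interferon, read 9.12, 9.13 and 9.09 in SCC-61 at 2 h and 10.69, 10.86 and 10.66 at 24 h. In HaCaT it read 9.29, 9.41 and 9.41 and then 8.75, 8.80 and 8.76. The changes were 1.62 (SE 0.06) and -0.60 (SE 0.06), and a second WARS1 probe gave 1.47 and -0.87. AARS1, the alanine enzyme, rose by 1.21 in SCC-61 (10.40, 10.48 and 10.55, then 11.71, 11.67 and 11.69), with SE 0.05. In HaCaT it went from 10.98, 11.00 and 10.97 to 10.83, 10.80 and 10.74, a change of -0.19 (SE 0.05, limma adjusted p = 0.000733). SARS1, the serine enzyme, rose by 1.07 in SCC-61 (SE 0.07) and had a change of 0.08 in HaCaT that did not pass the test (adjusted p = 0.376).

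The deepest falls among synthetases in HaCaT were those of MARS1 and VARS1, the methionine and valine enzymes. MARS1 read 8.91, 8.86 and 8.89 at 2 h and 6.92, 6.79 and 7.09 at 24 h, a log2 change of -1.95 (SE 0.07, limma adjusted p = 4.1e-20). In SCC-61 it read 8.95, 8.80 and 8.75 and then 9.39, 9.48 and 9.37, a rise of 0.58 (SE 0.07). VARS1 read 9.18, 9.14 and 9.27 in HaCaT at 2 h and 7.46, 7.55 and 7.56 at 24 h (change -1.68, SE 0.07). In SCC-61 it read 9.30, 9.37 and 9.16 and then 8.81, 8.93 and 8.82, so that it fell in both lines, by 0.42 in SCC-61 (SE 0.07). A dim second VARS1 probe, detected on 3 of the 6 untreated HaCaT arrays, gave 0.12 in HaCaT (adjusted p = 0.633) and so did not show the fall. FARSA, a subunit of the phenylalanine enzyme, changed by -1.48 in HaCaT (7.57, 7.50 and 7.47, then 5.94, 6.02 and 6.13) and by -0.58 in SCC-61 (6.96, 7.02 and 6.99, then 6.14, 6.60 and 6.49), with SE 0.10 each.

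IARS1, the isoleucine enzyme, rose by 0.30 in SCC-61 (9.83, 9.75 and 9.80, then 10.16, 10.03 and 10.10) and fell by 1.29 in HaCaT (10.43, 10.41 and 10.39, then 9.03, 9.13 and 9.20), SE 0.06 each. A dim second IARS1 probe gave -0.38 in SCC-61 (limma adjusted p = 0.115), so the rise there rests on 1 probe. In untreated HaCaT that probe was detected on 3 of 3 arrays at 2 h and 0 of 3 at 24 h, and no fold is given. FARSB, the other phenylalanine subunit, was read by a probe at 12.32 to 13.32 that rose by 0.29 in SCC-61 and gave 0.07 in HaCaT (adjusted p = 0.279). A dim FARSB probe was detected on 3 of 3 untreated HaCaT arrays at 2 h and 1 of 3 at 24 h, and its change of -0.86 is partly against background. In untreated SCC-61 the dim probe was detected on 1 of 3 arrays at 2 h and 0 of 3 at 24 h. It gave -0.40 there (limma adjusted p = 0.0506) and -0.47 with AMP-18 (adjusted p = 0.024), so the rise in SCC-61 rests on 1 probe. GARS1, EPRS1 and YARS1, the glycine, glutamate-proline and tyrosine enzymes, rose by 0.30, 0.25 and 0.18 in SCC-61 and fell by 1.13, 0.91 and 1.25 in HaCaT. KARS1, the lysine enzyme, fell in SCC-61 by 0.48 (8.16, 8.03 and 8.01, then 7.48, 7.60 and 7.69) and in HaCaT by 0.93 (9.16, 9.12 and 9.05, then 8.09, 8.13 and 8.32), SE 0.06 each. QARS1, the glutamine enzyme, was the sole synthetase to rise in HaCaT, by 0.28 (10.88, 10.95 and 10.89, then 11.12, 11.23 and 11.22) beside 0.22 in SCC-61 (10.98, 10.90 and 11.00, then 11.11, 11.31 and 11.13), and the 2 rises did not differ beyond their error (difference -0.06, SE 0.07, adjusted p = 0.542). LARS1, NARS1 and TARS1, the leucine, asparagine and threonine enzymes, fell by 0.74, 0.38 and 0.60 in HaCaT, and HARS1 and RARS1, the histidine and arginine enzymes, fell by 0.94 and 0.59 there.

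**Figure D2:**
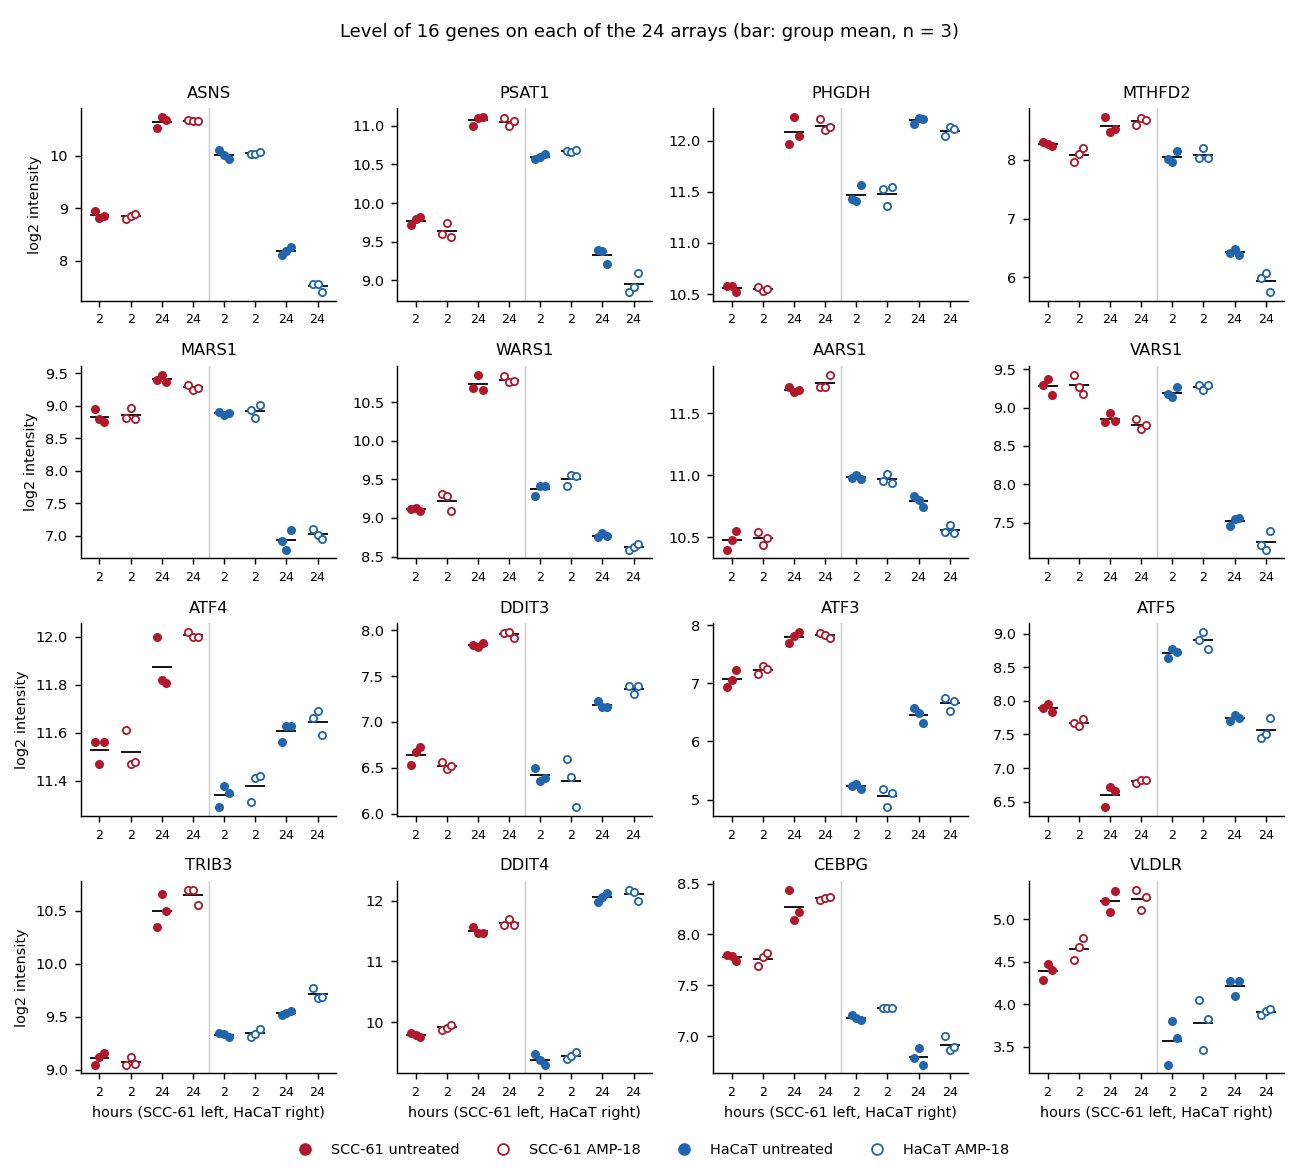
Log2 intensity (y axis) of 16 genes on each of the 24 arrays, by hours (x axis), with SCC-61 on the left of each panel and HaCaT on the right, untreated arrays filled, AMP-18 arrays open and a bar at each mean of 3. For ASNS the SCC-61 arrays lie at 8.80 to 8.94 at 2 h and 10.52 to 10.73 at 24 h, and the HaCaT arrays go from 9.94 to 10.11 down to 7.41 to 8.26, whereas DDIT4 is higher at 24 h in both lines.

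Of the 6 transcription factors, 5 rose and 1 fell in SCC-61, while 3 rose and 2 fell in HaCaT. Over all probes, 24.4% rose and 27.5% fell in SCC-61, and 28.6% rose and 29.3% fell in HaCaT. With 6 genes, a departure from these shares was not tested. The difference was above 0 in DDIT3, CEBPB and CEBPG and below 0 in ATF3 and ATF5 (18.9% and 20.8% of all probes). ATF4 itself read 11.56, 11.47 and 11.56 in SCC-61 at 2 h and 12.00, 11.82 and 11.81 at 24 h, and 11.29, 11.38 and 11.35 and then 11.56, 11.63 and 11.63 in HaCaT. It rose by 0.35 (SE 0.05) and 0.27 (SE 0.05), and the difference of 0.08 (SE 0.07) did not pass the test (limma adjusted p = 0.414). Of its other 2 probes, 1 gave 0.41 and 0.49, and the dimmest gave 0.05 in SCC-61 (adjusted p = 0.737) and -0.51 in HaCaT (adjusted p = 0.000171), with a difference between the lines that passed (0.56, adjusted p = 0.00417). The direction of ATF4 mRNA in HaCaT, and whether the lines differed, therefore depend on the probe. ATF4 is controlled chiefly at translation, and its protein was not measured on these arrays.

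DDIT3, which encodes the stress factor CHOP, read 6.53, 6.67 and 6.73 in SCC-61 at 2 h and 7.84, 7.82 and 7.86 at 24 h. In HaCaT it read 6.50, 6.36 and 6.39 and then 7.23, 7.16 and 7.16. It rose in both lines, by 1.19 and 0.77 (SE 0.09 each), and more in SCC-61 by 0.42 (SE 0.12, limma adjusted p = 0.00708). DDIT3 and MARS1 are neighbours on chromosome 12 whose gene models overlap by 65 bases in the RefSeq table, and in HaCaT they moved in opposite directions. ATF3, an early stress factor, rose by 0.72 in SCC-61 (6.93, 7.05 and 7.23, then 7.69, 7.81 and 7.88) and by 1.23 in HaCaT (5.23, 5.27 and 5.19, then 6.58, 6.49 and 6.32). The ATF3 rise was larger in HaCaT (difference -0.51, SE 0.13, adjusted p = 0.00222), opposite to the enzymes.

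ATF5, a factor of the same family, fell in both lines, by 1.29 in SCC-61 (7.89, 7.95 and 7.83, then 6.42, 6.72 and 6.66) and by 0.96 in HaCaT (8.63, 8.77 and 8.73, then 7.70, 7.79 and 7.75), SE 0.08 each. The difference of -0.32 (limma adjusted p = 0.0239) was lost without SCC-61 replicate 1 at 24 h (adjusted p = 0.099), HaCaT replicate 2 at 24 h (0.0552), SCC-61 replicate 2 at 2 h (0.0618) or HaCaT replicate 1 at 2 h (0.0685). CEBPB and CEBPG encode partners of ATF4. CEBPB rose by 0.61 in SCC-61 (SE 0.04) and changed by 0.05 in HaCaT (adjusted p = 0.331), and CEBPG rose by 0.49 and fell by 0.39 (SE 0.07 each). Among the small differences, that of RARS1 (0.24) was lost without HaCaT replicate 3 at 24 h (adjusted p = 0.0563) and that of FARSB (0.22) without SCC-61 replicate 3 at 2 h (adjusted p = 0.055).

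All 4 measured effectors rose in SCC-61, and DDIT4 and TRIB3 also rose in HaCaT at levels above background. Over all probes, 24.4% rose in SCC-61 and 28.6% in HaCaT, and a departure of 4 genes from these shares was not tested. DDIT4, an inhibitor of the growth kinase mTORC1, read 9.82, 9.79 and 9.76 in SCC-61 at 2 h and 11.56, 11.46 and 11.46 at 24 h. In HaCaT it read 9.48, 9.37 and 9.30 and then 11.98, 12.06 and 12.12. Its log2 change of 2.67 in HaCaT (SE 0.06, limma adjusted p = 3.92e-26) was the largest of the 34 genes in that line, and it was 1.70 in SCC-61, lower by 0.97 (SE 0.08, adjusted p = 2.59e-11). TRIB3, a pseudokinase induced by ATF4 and CHOP, rose by 1.39 in SCC-61 (9.05, 9.12 and 9.16, then 10.35, 10.66 and 10.50) and by 0.21 in HaCaT (9.35, 9.34 and 9.31, then 9.52, 9.54 and 9.56), SE 0.06 each. The TRIB3 difference of 1.19 (SE 0.09, adjusted p = 2.06e-12) had the direction of the enzymes. SESN2, which senses leucine for mTORC1, was dim and detected on 19 of 24 arrays. Its change of 0.41 in SCC-61 (SE 0.15, adjusted p = 0.027) was lost without replicate 1 or 3 at 24 h (adjusted p = 0.0887 and 0.0565) or replicate 1 or 2 at 2 h (0.098 and 0.0573). VLDLR, a lipoprotein receptor, rose by 0.82 in SCC-61. At 2 h it read 4.29 to 4.47 there and was detected on 2 of 3 untreated arrays, so this change is partly against background. In HaCaT VLDLR was detected on 0 of 12 arrays, so no fold is given. Its count among the 8 that rose in HaCaT has no level above background behind it.

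The time change could also be read in the AMP-18 arrays, which share no array with the untreated ones. In AMP-18 SCC-61, 26 of 34 genes rose and 6 fell (23.5% and 25.1% of all probes), and in AMP-18 HaCaT 8 rose and 22 fell (29.2% and 30.8%). The sign was the same as without AMP-18 in 33 of 34 genes of each line. The same call was made in 28 genes of SCC-61 and 29 of HaCaT. This agreement was not counted over all probes, so it cannot be said to be particular to these genes. The genes were named from earlier results of these data, to which the AMP-18 arrays belong. Hours in culture and handling cannot be told apart in these arrays either, so the agreement is not an independent replication. The gap between the 2 changes had a median of 0.11 in SCC-61 and 0.16 in HaCaT on the log2 scale, and was widest for ATF5 in SCC-61 (0.42) and for ASNS in HaCaT (0.69). Some of the small changes rested on single arrays. In AMP-18 SCC-61, IARS1 (0.19) lost its call without replicate 1 at 2 h (limma adjusted p = 0.11), TARS1 (0.16) without replicate 2 or 3 at either time (0.0847 to 0.287), and NARS1 (0.16) without replicate 2 at 24 h (0.065) or replicate 3 at 2 h (0.0854). In AMP-18 HaCaT, CEBPB (0.12) lost its call without replicate 1 at 24 h (0.106) or 2 h (0.089), and PSPH (-0.25) without replicate 2 or 3 at 24 h or replicate 1 or 2 at 2 h (0.0522 to 0.134).

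The order of the lines turned round between 2 h and 24 h in 13 of the 34 genes. Another 9 were higher and 3 lower in SCC-61 at both times. These combinations were not counted over all probes, so only the shares at each time are given. VLDLR, among the 9, passed the detection condition only through SCC-61 groups, and at 2 h it was detected on 2 of 3 untreated SCC-61 arrays. In untreated cells at 2 h, 10 of 34 genes were higher in SCC-61 than in HaCaT and 18 were lower (26.9% and 30.2% of all probes), with a median log2 difference of -0.21. At 24 h, 26 were higher and 4 lower (29.8% and 34.6%), with a median of 0.81. Over the 32 genes detected everywhere, 9 were higher and 18 lower at 2 h, and 24 higher and 4 lower at 24 h. These comparisons use the same untreated arrays as the time changes. The 12 genes lower in SCC-61 at 2 h and higher at 24 h were AARS1, EPRS1, FARSA, IARS1, LARS1, WARS1, YARS1, ASNS, PSAT1, PSPH, SHMT2 and TRIB3. DDIT4 went the other way, from 0.41 to -0.56.

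At 2 h the synthetases were 2 higher and 11 lower in SCC-61 of 18, and the enzymes 1 higher and 5 lower of 6, while 5 of 6 transcription factors were higher. Over all probes, 26.9% were higher and 30.2% lower, and a departure of such small groups from these shares was not tested. ASNS differed by -1.15 (SE 0.06), KARS1 by -1.04 (SE 0.06) and PHGDH by -0.91 (SE 0.06). ATF3 differed by 1.84 (SE 0.09, limma adjusted p = 8.73e-17), the widest difference at 2 h among the 34. At 24 h, MARS1 differed by 2.48 (SE 0.07), ASNS by 2.46 (SE 0.06), MTHFD2 by 2.15 (SE 0.08) and WARS1 by 1.97 (SE 0.06). PHGDH then differed by -0.11 (adjusted p = 0.0828), and QARS1 by -0.01 (adjusted p = 0.926). ATF5 was lower in SCC-61 at both times, by 0.82 and 1.15 on the log2 scale (SE 0.08 each). VLDLR at 24 h was at least 1.79-fold higher in SCC-61, against the lowest detected signal on each HaCaT array. It passed the detection condition only through SCC-61 groups, so its direction was set by that condition and is no separate result.

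Several of the smaller differences between the lines lost their call when 1 array was left out. At 2 h these were DDIT3 (0.23), without SCC-61 or HaCaT replicate 2 or 3 (limma adjusted p = 0.0714 to 0.12), MTHFD2 (0.22), without SCC-61 or HaCaT replicate 1 or 2 (0.0584 to 0.108), and PSPH (-0.29), without SCC-61 replicate 1 (0.118) or HaCaT replicate 2 (0.0724). At 24 h they were PSPH (0.28), without the same replicates (0.0752 and 0.0582), and SESN2 (0.35), without SCC-61 replicate 1 (0.131) or 3 (0.0847) or HaCaT replicate 2 (0.248) or 3 (0.0508). A second PSPH probe gave -0.16 at 24 h. ATF4 differed by 0.19 at 2 h, and its dimmest probe by -0.47. FARSB differed by 0.47 at 2 h and 0.70 at 24 h, whereas its dim second probe was called lower at both times (-0.85 and -0.40).

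**Figure D3:**
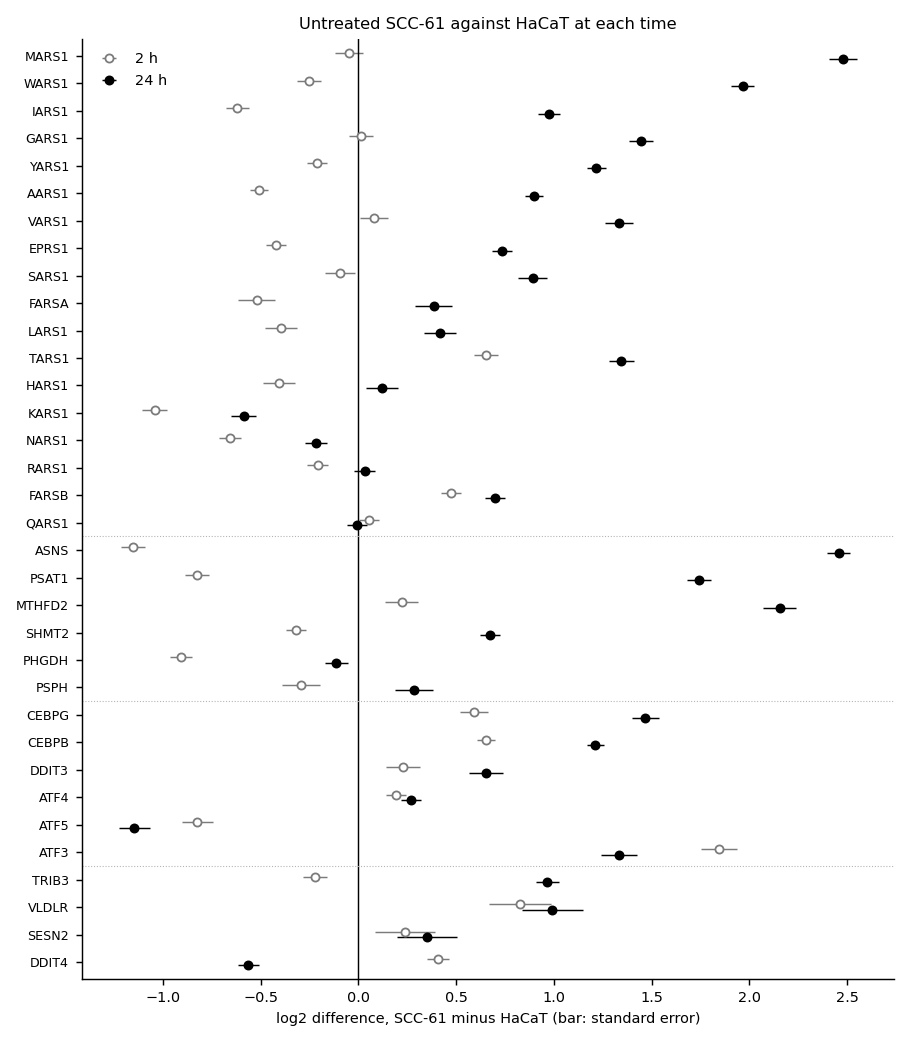
Log2 difference of untreated SCC-61 minus HaCaT (x axis) at 2 h (open) and 24 h (filled) for each of the 34 genes (y axis, grouped by role), with its standard error as a bar and 3 arrays per group. ASNS moves from -1.15 to 2.46 and MARS1 from -0.05 to 2.48, while DDIT4 moves from 0.41 to -0.56.

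AMP-18 changed few of these genes, and most of those in HaCaT at 24 h. There, 9 of the 34 were lower with AMP-18 and 0 higher, where 0.964% of all probes were lower and 0.639% higher. The 9 were ASNS, PSAT1 and MTHFD2 among the enzymes and AARS1, EPRS1, GARS1, IARS1, VARS1 and YARS1 among the synthetases, and 0 of the 10 transcription factors and effectors passed on their brightest probe. The dimmest ATF4 probe, detected on all 24 arrays, was higher with AMP-18 (0.42, limma adjusted p = 0.0407). ASNS read 7.57, 7.57 and 7.41 with AMP-18, below the untreated 8.11, 8.19 and 8.26 without overlap, a log2 change of -0.67 (SE 0.06, limma adjusted p = 1.99e-07). Its second probe gave -0.38 (adjusted p = 0.0169). MTHFD2 read 5.99, 6.08 and 5.75 with AMP-18 against 6.42, 6.48 and 6.38 (change -0.48, SE 0.08, adjusted p = 0.00243), and PSAT1 8.85, 8.92 and 9.10 against 9.39, 9.38 and 9.21 (change -0.37, SE 0.06, adjusted p = 0.00181).

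The 6 synthetase changes in HaCaT at 24 h were smaller, from -0.22 for YARS1 to -0.28 for EPRS1 and IARS1. IARS1 read 8.84, 8.82 and 8.86 with AMP-18 against 9.03, 9.13 and 9.20, and AARS1 10.54, 10.60 and 10.53 against 10.83, 10.80 and 10.74. VARS1 read 7.21, 7.15 and 7.39 against 7.46, 7.55 and 7.56. Leaving out an array ended the call of VARS1 (limma adjusted p = 0.0639 to 0.153 without any untreated replicate or AMP-18 replicate 1 or 2), GARS1 (0.0648 to 0.216 without untreated replicate 1 or 2 or AMP-18 replicate 2 or 3) and YARS1 (0.0833 without untreated replicate 2, 0.106 without AMP-18 replicate 3). When the 6 arrays of this comparison were fitted alone, 1 gene passed, ASNS (adjusted p = 0.0114). The untreated 24 h arrays enter both this comparison and the untreated time change. The summed level of the mesenchymal markers was 8.61 to 8.70 with AMP-18 and 8.73 to 8.86 without, and its part in the result was not tested. The difference of the AMP-18 effect between the lines at 24 h was called in 2 genes (0.148% of all probes), ASNS (0.69, SE 0.09, adjusted p = 9.92e-05) and MTHFD2 (0.57, SE 0.12, adjusted p = 0.0395). On the second ASNS probe it was 0.22 (adjusted p = 0.489). The MTHFD2 call was lost in 8 of 12 fits without 1 array (adjusted p = 0.072 to 0.127), all but those without SCC-61 untreated replicate 1, HaCaT untreated replicate 3, or HaCaT AMP-18 replicate 1 or 2.

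In SCC-61 at 2 h, where 8.64% of all probes passed, 1 of the 34 genes did. QARS1 read 11.11, 11.10 and 11.18 with AMP-18 against 10.98, 10.90 and 11.00, a log2 change of 0.17 (SE 0.05, limma adjusted p = 0.0321), and the call was lost without any untreated replicate or AMP-18 replicate 3 (adjusted p = 0.0502 to 0.164). In SCC-61 at 24 h 0 of 34 passed (0.283% of all probes), with 6 at an unadjusted p under 0.05 and a smallest adjusted p of 0.309, for ATF5. In HaCaT at 2 h 0 passed (0.00463% of all probes), with 4 at an unadjusted p under 0.05. The difference of the effects between the lines at 2 h was called in 1 gene (3.92% of all probes), ATF5 (-0.40, SE 0.11, adjusted p = 0.0411). ATF5 read 7.67, 7.63 and 7.73 with AMP-18 in SCC-61 and 8.91, 9.02 and 8.77 in HaCaT, and its call was lost in 9 of 12 fits without 1 array (adjusted p = 0.0526 to 0.119), all but those without SCC-61 AMP-18 replicate 1 or 3 or HaCaT AMP-18 replicate 3.

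**Figure D4:**
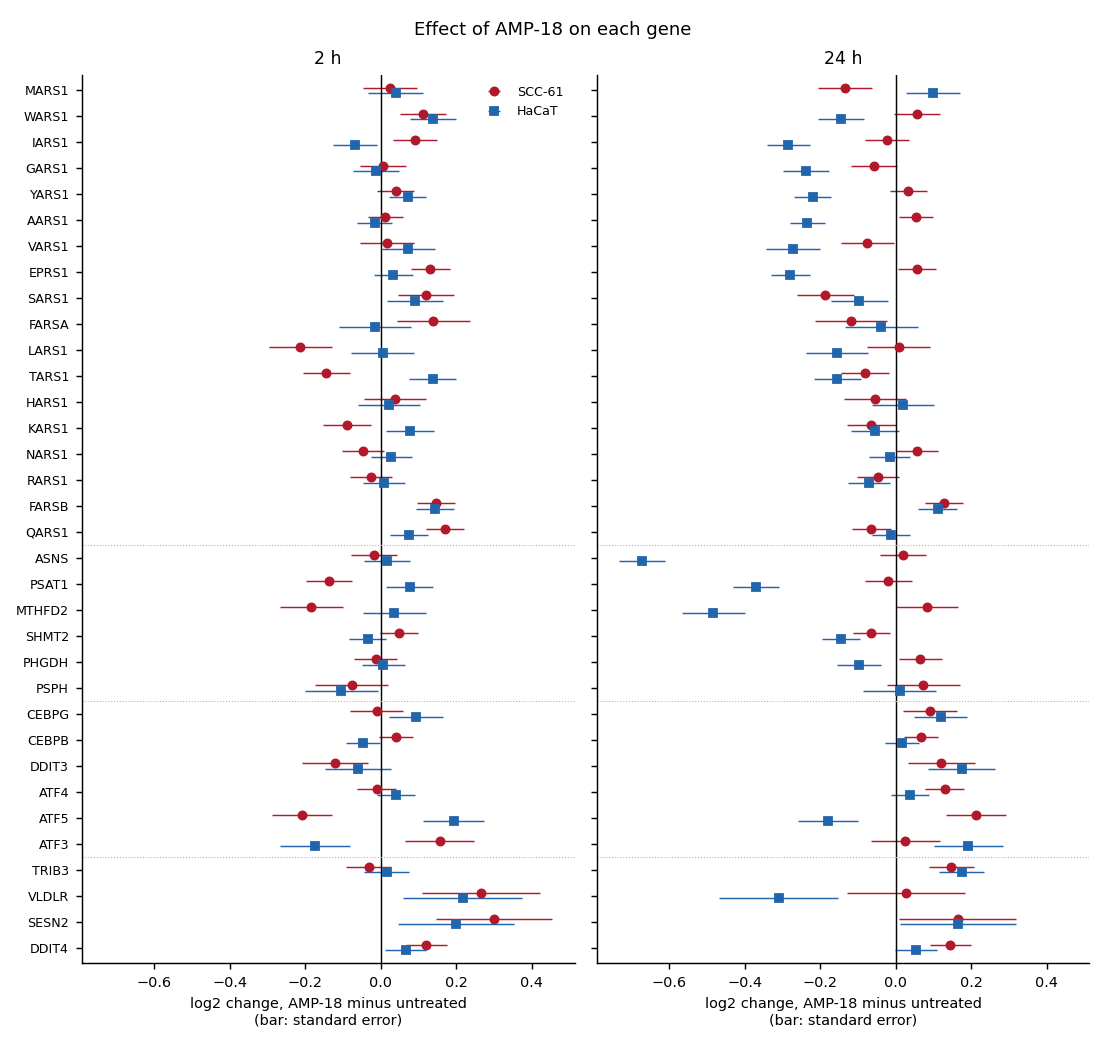
Log2 change with AMP-18 (x axis, AMP-18 minus untreated) of each of the 34 genes (y axis, grouped by role) in SCC-61 and HaCaT at 2 h (left) and 24 h (right), with its standard error as a bar and 3 arrays per group. The HaCaT points at 24 h reach -0.67 for ASNS, -0.48 for MTHFD2 and -0.37 for PSAT1, and the SCC-61 points of these genes lie between -0.02 and 0.08.

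Other genes of the pathway, listed from general knowledge with these results known, were counted in the untreated time change. Of 18 further ATF4 targets and amino acid enzymes measured of 20, 12 rose and 2 fell in SCC-61. In HaCaT 4 rose and 11 fell, and the difference was above 0 in 13 and below 0 in 2. Over all probes, 24.4% rose and 27.5% fell in SCC-61, and 28.6% rose and 29.3% fell in HaCaT. The difference was above 0 in 18.9% of probes and below 0 in 20.8%. CBS, which makes cystathionine from homocysteine, had log2 changes of 2.16 in SCC-61 and -0.81 in HaCaT, and PYCR1, of proline synthesis, 0.52 and -1.66. PCK2, the mitochondrial phosphoenolpyruvate carboxykinase, had 1.82 and 0.05 (limma adjusted p = 0.48 in HaCaT). KLHL24, an E3 ligase adaptor, rose in both, by 1.48 and 3.44, and NUPR1, a stress-induced chromatin protein, by 0.73 and 1.42.

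Of 10 amino acid transporters measured of 11, 4 rose and 2 fell in SCC-61, while 1 rose and 5 fell in HaCaT. Over all probes the shares were 24.4% and 27.5% in SCC-61 and 28.6% and 29.3% in HaCaT. With 10 genes, a departure from these shares was not tested. SLC7A11, which imports cystine, had log2 changes of -0.51 in SCC-61 and -2.10 in HaCaT, and SLC7A5, which imports large neutral amino acids, had -0.20 and -1.39. SLC38A2, a carrier of small neutral amino acids, rose in both, by 0.98 and 0.89. SLC1A5, a glutamine carrier, rose by 0.88 and fell by 0.90.

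More endoplasmic reticulum stress genes rose than fell in SCC-61, and more fell than rose in HaCaT. Of 13 measured of 15, 8 rose and 1 fell in SCC-61, and 0 rose and 10 fell in HaCaT. The difference was called above 0 in 12 and below 0 in 0. Over all probes, 24.4% rose and 27.5% fell in SCC-61, and 28.6% rose and 29.3% fell in HaCaT. The difference was above 0 in 18.9% of probes and below 0 in 20.8%. HSPA5, the chaperone BiP, had log2 changes of 0.37 and -0.66, and XBP1, a factor of the unfolded protein response, 0.78 and -0.73. Of 15 mitochondrial tRNA synthetases measured of 17, 2 rose and 6 fell in SCC-61 and 0 rose and 9 fell in HaCaT, with MARS2 at -1.31 and -2.71. Among 9 genes of eIF2α phosphorylation, 4 rose and 2 fell in SCC-61 and 2 rose and 4 fell in HaCaT. With so few genes, a departure from the shares over all probes (24.4% and 27.5%, then 28.6% and 29.3%) was not tested. EIF2AK4, which encodes GCN2, had 0.23 and -0.36, and EIF2AK3, which encodes PERK, 0.48 and 0.46. PPP1R15A, a phosphatase subunit induced by ATF4 and CHOP, fell by 0.48 in SCC-61 and changed by 0.11 in HaCaT (limma adjusted p = 0.0961).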

How the data were processed

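RNA of 24 samples was hybridized to Illumina bead arrays. The authors deposited normalized log2 intensities, and the submitters' processing notes name GenomeStudio 2011.1. The normalization method is not given in the sources used here. Detection p-values, deposited beside each intensity, compare a probe with the background of its array. Probes were named from the platform annotation. Of 47323 probes, 30113 had 1 symbol, 8 several and 17202 none. All value columns were used.

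One model with a mean per group was fitted to the 24 arrays in limma (version 3.58.1, R 4.3.3). Its variances were moderated along an intensity trend, on 16 residual degrees of freedom plus 12.62 from the prior. Two-sided p-values were adjusted by Benjamini-Hochberg over 21580 probes. The number of arrays limits the precision. Per-array values are given for called genes with the 8 largest time changes in each line, the 4 largest AMP-18 effects in each comparison, the 4 largest differences between lines at each time, and always for ATF4, DDIT3, ASNS and TRIB3, with the range of CHAC1. Genes and lists were chosen with earlier results of these data known, and genes outside this rule were named after their values were seen. No 2 arrays were identical. The fit was tested on simulated data. Alternatives covered the filter, normalization, an added constant of 16, the variance model, array weights, the arrays fitted, a replicate block, the probe chosen and leaving out each array.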

Additional observations from a re-analysis of the deposited data

Results flagged for a closer look

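The test of the difference between the lines itself passed for 30 genes in the untreated time change and for 3 in the AMP-18 effect (limma, Benjamini-Hochberg adjusted p under 0.05). Groups held 3 arrays each, too few to look for single outlying arrays.

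The untreated change from 2 h to 24 h was more positive in SCC-61 than in HaCaT for 27 genes, on the log2 scale. Among the enzymes the difference was 3.61 for ASNS, 2.57 for PSAT1, 1.93 for MTHFD2, 0.99 for SHMT2, 0.80 for PHGDH and 0.57 for PSPH. Among the synthetases it was 2.53 for MARS1, 2.22 for WARS1, 1.59 for IARS1, 1.43 for GARS1 and for YARS1, 1.40 for AARS1, 1.25 for VARS1 and 1.16 for EPRS1. It was 0.99 for SARS1, 0.91 for FARSA, 0.81 for LARS1, 0.69 for TARS1, 0.53 for HARS1, 0.46 for KARS1, 0.44 for NARS1, 0.24 for RARS1 and 0.22 for FARSB. Among factors and effectors it was 1.19 for TRIB3, 0.88 for CEBPG, 0.56 for CEBPB and 0.42 for DDIT3. It was more negative for DDIT4 (-0.97), ATF3 (-0.51) and ATF5 (-0.32).

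The AMP-18 effect differed for ATF5 at 2 h (-0.40, adjusted p = 0.0411) and at 24 h for ASNS (0.69, adjusted p = 9.92e-05) and MTHFD2 (0.57, adjusted p = 0.0395).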

How the results depend on the processing

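The counts of genes called in the 4 time changes within a line and treatment, in their untreated difference and between the lines at each time stayed within 1.5 times under every alternative, and so did those of AMP-18 in SCC-61 at 24 h and in HaCaT at 2 h, which were 0. With a replicate block, 30 genes were called in the untreated time change of each line, and 8 for AMP-18 in HaCaT at 24 h. The labels tie no replicate number to a shared culture, and deviations from the group means correlated at -0.165 to 0.072 over 30 pairs of the same number, 0 of them over 0.1.

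The AMP-18 count in HaCaT at 24 h, 9, was 1 in a fit of its own 6 arrays and 6 to 8 without 1 array. That in SCC-61 at 2 h, 1, was 0 with no filter, no trend or only the arrays compared, 2 with a detection p under 0.01 required on all 24 arrays (the strict filter) or cyclic loess, 5 with array weights, and 0 to 3 without 1 array. The count of differences in the AMP-18 effect at 2 h, 1, was 0 with no filter, cyclic loess or no trend, 4 with array weights, and 0 to 3 without 1 array. That at 24 h, 2, was 1 with no filter, 16 added, no trend, the replicate block, the dimmest probe or only the arrays compared. It was 4 with the strict filter or the mean of probes, 5 with array weights, and 1 to 5 without 1 array.

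Directions turned only with the choice of probe. With the dimmest probe, ATF4 gave -0.24 in the AMP-18 SCC-61 time change, -0.47 between untreated lines at 2 h (-0.01 with the mean of probes) and -0.51 in the untreated HaCaT time change. IARS1 gave -0.32 in the AMP-18 SCC-61 time change (-0.07 with the mean), -0.38 in the untreated one (-0.04 with the mean) and 0.09 for AMP-18 in HaCaT at 24 h, where the probe was detected on 0 arrays and the sign has no meaning. VARS1 gave -0.25 between untreated lines at 24 h, -0.50 in the difference of time changes and 0.12 in the untreated HaCaT time change. None of these VARS1 values passed (limma adjusted p = 0.264, 0.151 and 0.633), and the probe was detected on only 9 of 24 arrays. Counting each change of a named gene once for each alternative, 2462 values kept direction and call, 72 lost the call and 12 turned.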
